A study of Homo sapiens with 12 samples.

Results

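The m6A landscape described here is that of BT474 cells made resistant to trastuzumab, the therapeutic antibody against the receptor ERBB2. BT474 is an established human breast cancer line of luminal type with an amplified ERBB2 gene. N6-methyladenosine (m6A) was mapped by MeRIP-seq, in which RNA fragments carrying the mark are pulled down with an anti-m6A antibody (IP) and sequenced beside RNA that was not pulled down (input). The members were chosen by their labels: the peak lists of the 3 resistant IP libraries, each called against resistant input, of 6 IP libraries and 12 libraries in the series. These lists hold 95605 listed peaks. The resistant line, labelled BT474.TtzmR, was kept in DMEM with 10% serum, and no drug is named in its culture medium. The libraries were made with a stranded mRNA kit. The labels do not say whether the replicates came from separate cultures, or whether the line is a single clone, so the spread between replicates may be technical.

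m6A is the most common internal modification of mRNA. It is written in the nucleus by a complex built around METTL3 and METTL14 with the adaptor WTAP, removed by FTO and ALKBH5, and read by proteins with a YTH domain that alter splicing, translation and decay. In mammalian cells the mark is known to lie mostly in long internal exons, around the stop codon and in the 3′ UTR. A transcript needs both RNA and m6A to give a peak. Amounts of RNA were not analysed here, so a gene with no peak may have been little expressed or unmethylated, and in bulk RNA fewer cells with a transcript cannot be told apart from less RNA per cell.

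The lists were of similar size. Replicate 1 held 32638 listed peaks, replicate 2 held 30767 and replicate 3 held 32200, a mean of 31868 ± 979 (SD, n = 3). Each peak is listed once per transcript isoform, 2.67 to 2.70 times per stretch of RNA, so peaks sharing at least 1 exonic base on the same strand were joined into merged regions. This gave 12216 merged regions in replicate 1, 11425 in replicate 2 and 11940 in replicate 3, on 6813, 6511 and 6741 genes. Each peak carries a fold enrichment, which is the authors' ratio of IP over input, and the authors' p. Both serve only for ranking and description inside 1 list, never across lists as a test, and a region takes the largest fold and the smallest p of its peaks. The median fold of listed peaks was 3.67, 3.49 and 3.55 in replicates 1, 2 and 3. Read totals are not in the lists, so the depth behind each list is unknown.

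Most markers of a luminal breast line carried peaks. Over all protein-coding genes of a human gene table, 27.7% had a peak in all 3 libraries. Of 12 luminal and ERBB2-related marker genes, 8 carried a peak in all 3 libraries: ERBB2, GRB7, FOXA1, KRT8, KRT18, KRT19, EPCAM and CDH1. GATA3 and TFF1 were listed in 2 libraries, and the hormone receptors ESR1 and PGR in 1. KRT5, KRT14 and TP63, which mark basal epithelium, had none, while the fourth basal marker, EGFR, had a peak in all 3. Of 5 fibroblast markers, COL1A1 had a peak in all 3 libraries, with folds of 4.57, 4.19 and 4.84, VIM in 1, and COL1A2, PDGFRB and ACTA2 in none. None of the 4 blood and vessel markers PTPRC, CD68, CD3E and PECAM1 had a peak. The shares with a peak in all 3 libraries, 25% of basal and 20% of fibroblast markers, were near that of all protein-coding genes. With so few markers, the missing peaks do not speak about cell type.

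Most methylated genes recurred in every library. In all, 7792 genes had a peak in at least 1 list, and 5644 of them (72.4%) had a peak in all 3. A further 985 genes (12.6%) were in 2 lists and 1163 (14.9%) in 1. Over the protein-coding genes of a human gene table, 5563 of 20056 had a peak in all 3 libraries, a background of 27.7%. That share includes genes that may not be expressed in these cells. The gene groups below were chosen with earlier results of these data known, so a share above 27.7% is description only. Regions recurred less fully than genes: when peaks were joined across lists, 7800 of 15415 regions (50.6%) were found in all 3, 2518 (16.3%) in 2 and 5097 (33.1%) in 1. These 7800 are called common regions below.

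Recurrence followed the p of a region more closely than its fold. Shares are means over the 3 lists with their SD. Among regions with a p at or below 1e-20, 99.9% ± 0.10 were common regions. The share was 86.4% ± 2.6 for p from 1e-10 to 1e-06 and 29.1% ± 4.9 for p above 1e-04. By fold, the share did not climb steadily. It was 60.4% ± 3.5 below a fold of 3, 76.7% ± 3.2 from 5 to 10, 61.6% ± 5.7 from 10 to 20, and 89.5% ± 0.83 at 20 or more. Among regions with a fold of at least 10, those with a p at or below 1e-05 were common in 92.0% ± 0.22, and those with a larger p in 35.1% ± 5.1. A fold below 3 with a p at or below 1e-05 went with recurrence of 84.6% ± 2.1.

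**Figure D1:**
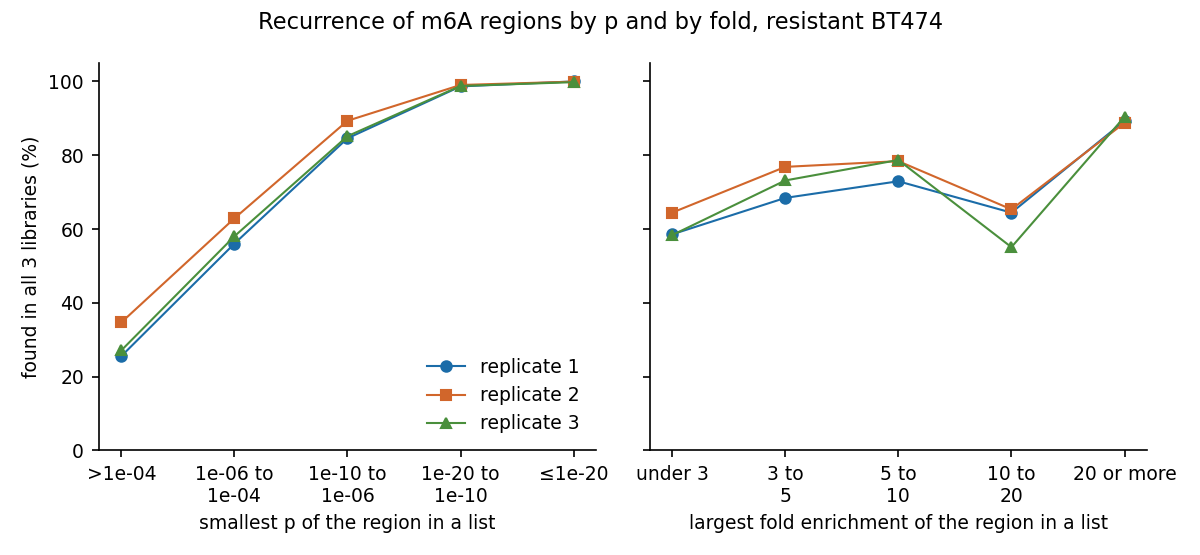
Share of regions of each list that were found in all 3 libraries (y axis, %), by the region's smallest p (left) and largest fold enrichment (right); each line is 1 replicate. The share climbs to between 99.8% and 100% at the smallest p, whereas by fold it dips at 10 to 20 in every replicate.

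Within the common regions the libraries ranked enrichment alike. Across the 7800 regions, Spearman's rho for fold was 0.820 between replicates 1 and 2, 0.824 between 1 and 3, and 0.816 between 2 and 3. For p it was 0.876, 0.877 and 0.861. These correlations are across regions, which are not independent replicates and whose transcripts, with their own abundance, are shared by the lists. The highest fold of a region was a median of 1.44 times its lowest, and 19.1% of common regions differed by over 2 times between lists.

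Coding sequence and the 3′ end held most m6A regions. Of the merged regions, 39.2% ± 0.19 lay in coding sequence only and 35.8% ± 0.75 in the 3′ UTR only (SD, n = 3 lists). A further 17.2% ± 0.41 ran from coding sequence into the 3′ UTR and so covered the stop codon. The 5′ end held less: 3.93% ± 0.50 spanned the 5′ UTR and coding sequence, 3.43% ± 0.27 lay in the 5′ UTR only, and 0.310% ± 0.021 ran through all 3 parts. Each part's share differed between lists by less than the shares differed from each other, apart from the near-equal pair at the 5′ end. Coding sequence and the 3′ UTR were also fairly close, at 39.4% and 36.7% in replicate 2. The position is the authors' annotation of each isoform, and 2210 of the common regions (28.3%) had more than 1 position over their isoforms, in which case the majority was used.

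**Figure D2:**
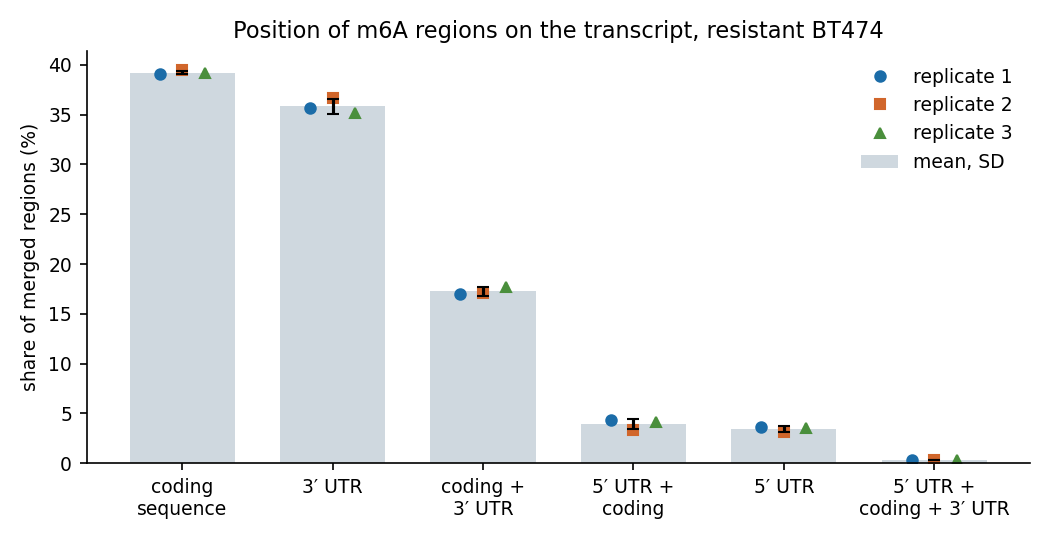
Share of merged regions by position on the transcript (y axis, %); bars are means over 3 lists, error bars are SD and points are the replicates. Coding sequence averages 39.2% and the 3′ UTR 35.8%, and the replicates lie close together in every class.

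Stop codon regions were the most recurrent of the large classes. Of regions spanning coding sequence and 3′ UTR, 79.3% were found in all 3 libraries, against 47.3% in coding sequence only and 44.2% in the 3′ UTR only. For 5′ UTR and coding sequence the share was 59.8%, and for the 5′ UTR only it was 29.7%. The few regions through all 3 parts recurred in 91.9%, 34 of 37. Their exonic length differed too: the median was 485 bases at the stop codon, 378 in coding sequence, 272 in the 3′ UTR and 957 for regions through all 3 parts. A longer region has more bases by which to overlap another, and its part in recurrence was not tested.

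High folds were commonest at the 5′ end and in the 3′ UTR. A fold of at least 10 was listed for 34.0% ± 1.8 of common regions in the 5′ UTR only, 27.2% ± 6.5 at the start of the coding sequence and 24.7% ± 1.0 in the 3′ UTR only. It was listed for 11.2% ± 1.8 at the stop codon and 8.21% ± 1.5 in coding sequence. The median fold of common regions was 6.44 ± 0.44 in the 5′ UTR and 4.10 ± 0.096 in coding sequence (SD, n = 3 lists).

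Each class had recognisable leading genes by p. In the 5′ UTR these were NFE2L1, a transcription factor that controls proteasome genes, ZNF146, a zinc finger protein, and TLE5, a Groucho-family corepressor. The NFE2L1 region (chr17:46125809-46128674, as the files count it) had folds of 6.16, 4.96 and 4.14 in replicates 1, 2 and 3. The ZNF146 region had folds of 3.36, 3.59 and 3.2. Across the start codon the leaders were BCAS1, a gene named for its amplification in breast cancer, FTH1, the ferritin heavy chain that stores iron, and YBX1, an RNA-binding protein. YBX1 had folds of 22, 13.7 and 13.5, the highest of these 3 genes in every list. Peaks of BCAS1 and YBX1 ran far beyond the start codon. They covered 86.7%, 96.7% and 93.3% of a listed BCAS1 transcript, and 100% of a YBX1 one in every list. In the 3′ UTR the leaders were FAM210B, PIP4K2B, a lipid kinase, and TPT1, a growth-related calcium-binding protein with folds of 6.02, 4.23 and 5.16. Through the whole transcript they included HMGN2, a nucleosome-binding protein, and MDK, a secreted growth factor with folds of 5.32, 2.7 and 2.71.

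At the level of genes, the 3′ end prevailed. Of 5378 genes with a common region, 2694 (50.1%) had them only at the 3′ end, meaning the stop codon or the 3′ UTR. Another 1346 (25.0%) had them only in coding sequence, and 774 (14.4%) in both. The 5′ end was touched without the 3′ end in 294 genes (5.47%), and both ends were touched in 270 (5.02%). The other 266 genes with a peak in all 3 libraries had no common region, since no single region of theirs was in every list. CCND1, cyclin D1, was among them.

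Most genes carried a single common region. There were 3603 genes (67.0%) with 1, 1272 (23.7%) with 2, 357 (6.64%) with 3, 122 (2.27%) with 4 or 5, and 24 (0.446%) with 6 to 8. Genes with more regions had longer transcripts. The median longest listed transcript was 3210 bases for genes with 1 region, 5362 bases with 3 and 10463 bases with 6 to 8, and Spearman's rho between the number of regions and that length was 0.333 across 5378 genes.

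**Figure D3:**
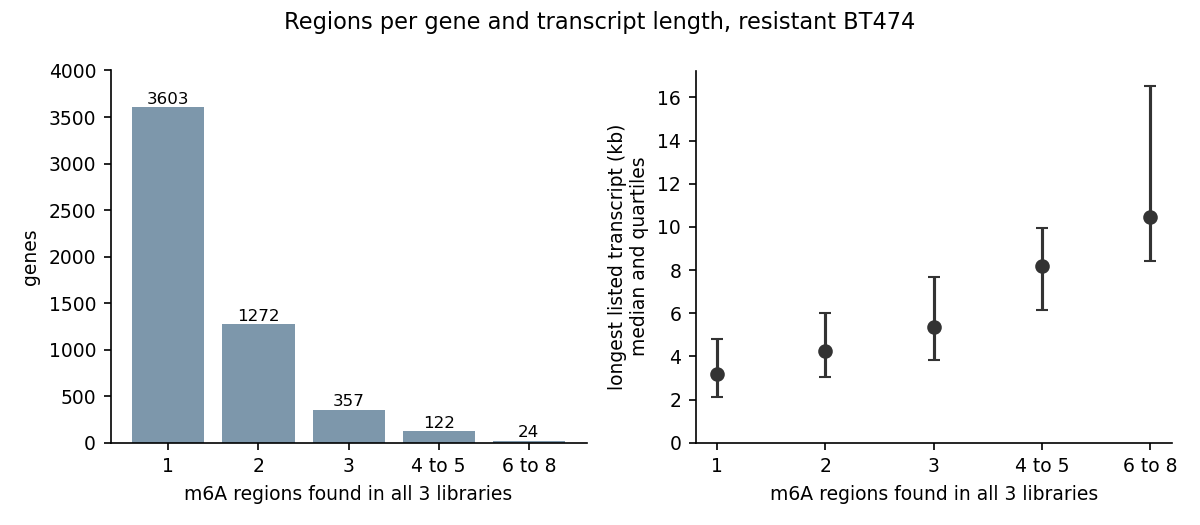
Number of genes (left, y axis) and the longest listed transcript in kb (right, points are medians, bars are quartiles) by the number of m6A regions found in all 3 libraries. Of 5378 genes, 3603 carry 1 region and 24 carry 6 to 8, and the median transcript lengthens at each step.

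KMT2D, a histone H3 lysine methyltransferase, and NCOA6, a nuclear receptor coactivator, had the most common regions, 8 each. In KMT2D, 7 of the 8 lay in coding sequence and 1 over the stop codon. Its leading region (chr12:49445128-49446027) had folds of 14, 6.88 and 10.1. At the stop codon the folds were lower in every list, 7.06, 5.23 and 5.13. NCOA6 also had 7 regions in coding sequence, and its eighth lay in the 3′ UTR. Its folds were lower: the leading region (chr20:33342598-33345816) had 3.87, 3.24 and 3.55.

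AHNAK and GOLGA3 had 7 regions each, and they differed in where the enrichment lay. All 7 regions of AHNAK, a giant scaffold protein, were in coding sequence and had low folds, with 2.12, 2.49 and 2.28 for the leader by p. GOLGA3, a Golgi protein, had 4 of its 7 regions in the 3′ UTR, and 3 of these reached a fold of 9.28 or more in every list. Its leader by p was in coding sequence, at 3.39, 3.91 and 5.38. EP300, a histone acetyltransferase, had 6 regions from end to end of its transcript: 1 in the 5′ UTR, 3 in coding sequence, 1 over the stop codon and 1 in the 3′ UTR. The stop codon region (chr22:41573176-41575182) had folds of 10.7, 10.7 and 11.2, while the 5′ UTR region had 30.3, 18.1 and 3.32.

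Many listed peaks crossed an exon junction. The number of blocks of a peak is the number of exons it covers, and 35.1% ± 0.51 of listed peaks had more than 1 (SD, n = 3 lists). Peaks with 2 blocks made up 16.5% ± 0.27, those with 3 made up 8.74% ± 0.35, those with 4 or more 9.80% ± 0.35, and those with 10 or more 0.434% ± 0.032. The share differed by position: 50.9% ± 1.2 of listed peaks in coding sequence had several blocks, against 0.849% ± 0.095 in the 3′ UTR. Peaks over the start codon had several blocks in 70.5% ± 2.5 and those over the stop codon in 37.5% ± 0.26. In exonic bases, peaks with 2 blocks were no longer than those with 1, with medians of 209 to 210 and 208 to 209. Peaks with 10 or more blocks had medians of 1193 to 1254 exonic bases.

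The regions with most blocks covered long stretches of coding sequence. A region takes the highest block count of its peaks, which need not be that of the peak with the highest fold. MYH9, the heavy chain of non-muscle myosin, led with 21, 20 and 21 blocks over 3795, 3527 and 3795 exonic bases (chr22:36678194-36697602). Its folds were 5.95, 5 and 5.64. SLTM, a nuclear RNA-binding protein, had 18, 18 and 17 blocks with folds of 5.39, 5.68 and 4.17. ROCK1, a kinase that activates myosin, and SART1, a spliceosome protein, had 15 blocks in every list. ROCK1 had folds of 4.96, 4.27 and 3.25, and SART1 had 5.67, 5.8 and 6.15. ASPH, an aspartate hydroxylase, had 14, 15 and 15 blocks with lower folds of 2.16, 2.52 and 2.59. The number of exons covered differed by at most 1 between libraries in these 5 genes.

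The strongest folds were in 3′ UTRs. The common region with the best worst rank over the 3 lists was in the 3′ UTR of ZKSCAN1, a zinc finger transcription factor (chr7:99632253-99634633), with folds of 236, 283 and 277. KCTD20 followed with 189, 167 and 218 in its 3′ UTR (chr6:36457844-36458681). The third, TLE5, had 153, 128 and 216 in a 5′ UTR region of 269, 269 and 299 exonic bases (chr19:3062257-3062555). MTRFR, a factor that rescues stalled mitochondrial ribosomes, had 123, 130 and 176 over its stop codon. All exceeded a fold of 100 in every list.

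The other 6 leaders by fold held 3 further genes of mitochondria. NME6, a nucleoside diphosphate kinase family member of mitochondria, had 116, 120 and 113. MIEF1, which recruits the mitochondrial fission machinery, had 116, 141 and 110. FAM210B, a mitochondrial membrane protein, had 92.8, 94.4 and 185, with replicate 3 well above the others. EMP2, an epithelial membrane protein, had 127, 110 and 111, and KIAA1191 had 135, 92.8 and 139. PIP4K2B had 85, 265 and 273 at its start codon (chr17:36955531-36956158), so replicate 1 was lower by about 3 times. A separate 3′ UTR region of the same gene (chr17:36923853-36924570) had folds of 4.06, 4.15 and 4.88. Whether genes of mitochondria lead beyond their number was not tested.

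The regions with the smallest p were seldom those with the highest folds. For 34 regions on 34 genes, the deposited p was 0 in every list, so they cannot be ordered by p, and 10 of them were on mitochondrial RNA. Their median fold percentile within a list was 67.8, where 100 is the highest, and the lowest fold over the lists had a median of 5.07. Of the 34, 5 had a fold below 3 in every list: ERBB2, HSP90AB1, RPL19, MT-CO1 and MT-CO2. Among the first 10 in alphabetical order were ATF4, BCAS1, CALR, ERBB2, FTH1, HMGN2, HNRNPU, HSP90AA1 and HSP90AB1. ATF4, the transcription factor of the integrated stress response, had folds of 3.85, 3.8 and 3.25 over its stop codon (chr22:39918300-39918691). CALR, a chaperone of the endoplasmic reticulum, had 6.66, 5.5 and 5.62, and HSP90AA1, a cytosolic chaperone, had 4.54, 4.58 and 3.61. BCAS1 had the highest fold of these 9 in every list, 7.63, 9.07 and 7.74, in a region whose peaks had up to 9, 9 and 12 blocks. HMGN2 had peaks of up to 6 blocks in each list, with folds of 6.72, 5.12 and 5.86. HNRNPU, a nuclear RNA-binding protein, had 6.64, 5.76 and 5.68.

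Other regions with a p of 0 reached higher folds or lay in other parts of the transcript. VEGFA, the angiogenic growth factor, had folds of 19, 11.5 and 12.8 in coding sequence. JUN, an AP-1 transcription factor, had 7.98, 6.17 and 6.12 over its stop codon. NPM1, a nucleolar chaperone, had 3.17, 3 and 2.77. IER5L had the highest fold of the 34 in every list, 48.2, 20.8 and 28.

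Ranking by fold and by p picked almost separate sets. Of the 100 leading common regions by each measure, 1 was shared. By fold, 78 of the 100 lay in the 3′ UTR only and 7 had several blocks in every list. By p, 58 lay over the stop codon, 6 in the 3′ UTR only and 10 through all 3 parts, and 58 had several blocks. The lowest fold over the lists had a median of 38.6 in the set ranked by fold and 4.71 in the set ranked by p. Across the 7800 common regions, a higher fold went only weakly with a smaller p, with Spearman's rho of -0.226, -0.218 and -0.210 in replicates 1, 2 and 3.

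**Figure D4:**
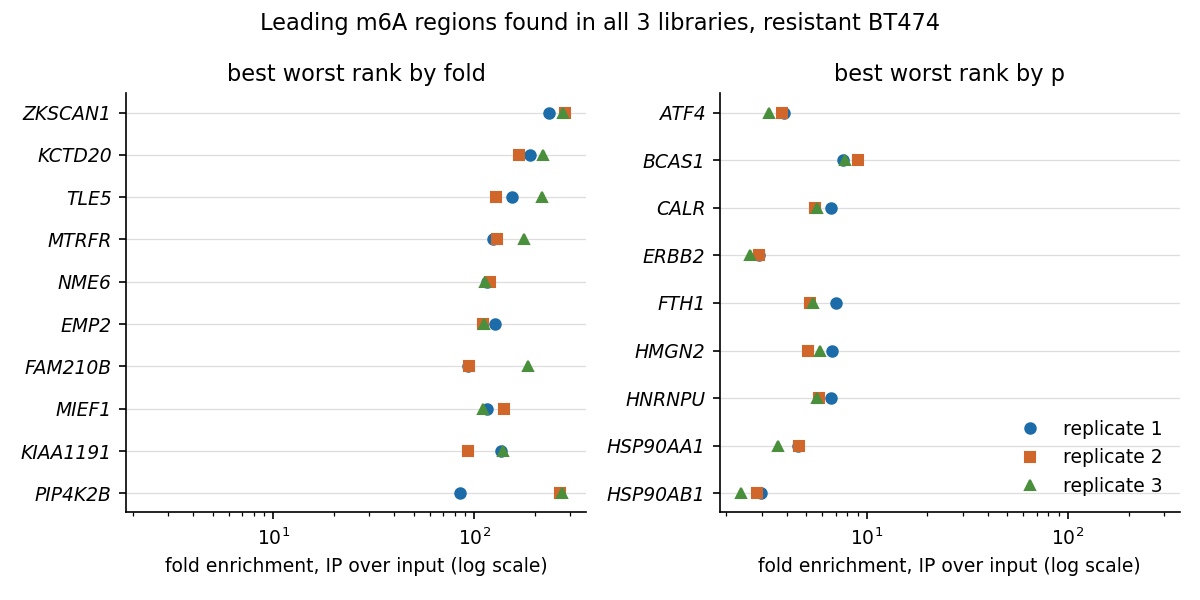
Fold enrichment of IP over input (x axis, log scale) of the 10 leading common regions by fold (left) and of 9 of the first 10 by p (right); each point is 1 replicate. The left set reaches from 85 to 283, and the right set, the start of the alphabet among 34 regions tied at a p of 0, from 2.36 to 9.07.

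The m6A machinery was itself methylated in part. Of 9 writer genes, which are those of the complex and METTL16, 7 had a peak in all 3 libraries, and METTL3 and RBM15B had none in any. METTL14, the partner of METTL3, had a common region over its stop codon (chr4:119631266-119631893) with folds of 3.27, 3.3 and 3.29, which hardly differed. A second METTL14 region, in the 3′ UTR, had 16.5, 3.39 and 3.81, where replicate 1 stood apart. WTAP had 2.86, 3.49 and 3.76 over its stop codon. CBLL1, a ubiquitin ligase of the complex, had 7.19, 6.72 and 6.73, and ZC3H13, its zinc finger subunit, had 3 common regions, the leader with 8.96, 10.7 and 8.03. METTL16, a methyltransferase that acts apart from the complex, had 8.78, 9.91 and 10.6.

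Among 14 erasers and readers, 6 had a peak in all 3 libraries, 3 in 1 or 2 and 5 in none. ALKBH5 had a coding region (chr17:18087583-18087941) with folds of 19.5, 6.98 and 13.9, the highest in every list among the best regions of these 6 genes. FTO had only a region in replicate 2, with a fold of 5.12, and another in replicate 3, with 13.9. The cytoplasmic readers YTHDF1, YTHDF2 and YTHDF3 all had common regions. YTHDF2 had 5.1, 4.21 and 5.62 over its stop codon, YTHDF3 had 6.89, 4.69 and 5.03, and YTHDF1 had 2.72, 4.11 and 2.34 in coding sequence. HNRNPA2B1 and HNRNPC, nuclear RNA-binding proteins, had lower folds of 2.93, 2.8 and 2.37, and 2.83, 2.91 and 2.09. IGF2BP1, IGF2BP2, IGF2BP3, YTHDC2 and FMR1 had no peak.

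ERBB2 and most of its signalling partners carried an m6A peak in every library. The 10 genes with a common region had a mean of 1.3 such regions, near the 1.47 over all genes. Their median longest transcript was 6006 bases, against 3724 over all genes. Of 15 ERBB receptors and adaptors, 11 had a peak in all 3 libraries, 2 in 1 or 2, and ERBB4 and SHC1 in none. The ERBB2 region lay over its stop codon (chr17:37883741-37884915), had folds of 2.92, 2.92 and 2.62 and a p of 0 in every list. A further ERBB2 region at the 5′ end was listed in replicate 1 only, with a fold of 2.1. ERBB3, the partner of ERBB2 in its most active dimer, had 2.4, 2.57 and 2.8. SOS1 and SOS2, which activate RAS, had higher folds, 6.82, 7.53 and 8.81, and 6.51, 5.58 and 5.8. ERRFI1, an inhibitor of ERBB receptors, had 3.54, 6.63 and 3.62 in its 3′ UTR.

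Of 17 genes around ERBB2 on chromosome 17, 14 had a peak in all 3 libraries. The folds of several were low. GRB7, an adaptor of ERBB2, had 1.41, 1.36 and 1.38 and MIEN1 had 1.73, 1.63 and 1.84, both in the 3′ UTR. CDK12, a transcriptional kinase, had 3.78, 4.08 and 4.43 in coding sequence, MED1, a Mediator subunit, had 3.26, 3.42 and 3.18, and PSMD3, a proteasome subunit, had 3.34, 2.91 and 3.09. The median fold percentile of the group's best regions was 32.9, where 100 is the highest of a list, against 58.3 for all 5325 genes with such a value. In every group below, the best region is the common region of a gene with the best worst rank by p.

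In the PI3K pathway, which carries survival signals from ERBB2, 13 of 21 genes had a peak in all 3 libraries, 4 in 1 or 2 and 4 in none. PIK3CA, the catalytic subunit, had 7.06, 6.39 and 8.75 over its stop codon. PIK3R2, a regulatory subunit, had higher folds of 11.8, 14.2 and 22.3 in the 3′ UTR. FOXO3, a transcription factor restrained by AKT, had 5.48, 7.13 and 5.83, and TSC1, a brake on mTOR, had 7.68, 7.11 and 8.2. AKT1, MTOR and TSC2 were in 1 or 2 lists only. In the RAS and ERK pathway, 12 of 18 genes had a peak in all 3 libraries and the other 6 had none, among them BRAF, MAP2K1 and the feedback inhibitors DUSP5 and SPRY2. Other feedback inhibitors had the smallest p of the group. DUSP4, an ERK phosphatase, had 4.4, 3.39 and 3.86, SPRED2 had 9.53, 9.12 and 13.5, and SPRY1 had 38.6, 10.7 and 8.12, with replicate 1 far above the others. DUSP6, a further ERK phosphatase, had low folds of 1.51, 1.46 and 1.52.

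The transcription factors of luminal cells were widely methylated, with 11 of 15 genes in all 3 libraries. FOXA1, which opens chromatin for hormone receptors, had 10.4, 9.34 and 13.1 in a region that included its stop codon (chr14:38060053-38061812). Its peaks ran far beyond that codon, covering 86.7%, 85.0% and 85.0% of a listed transcript. TFAP2A had 24.4, 19.2 and 35.5, the highest best-region folds of the group. SPDEF had 5.58, 5.44 and 6.58 and ELF3 had 7.36, 6.38 and 5.75. The hormone receptors ESR1 and PGR and the factor GATA3 were in 1 or 2 lists only.

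Histone methyltransferases had many regions per gene and carried most of their best regions in coding sequence. Of 18 histone lysine methyltransferases, 15 had a peak in all 3 libraries, and KMT2A, EZH1 and EHMT2 had none. Over the 14 with a common region, the mean number of regions was 3.64, against 1.47 over all genes, and the best region lay in coding sequence in 13 of 14 (92.9%), against 33.5% over all genes. Their median longest transcript was 8332 bases, against 3724 over all genes, and the part of transcript length in these counts was not tested. KMT2B had 5 common regions, the leader with folds of 9.42, 9.73 and 9.52, and NSD1 also had 5, the leader with 10.6, 7.85 and 10.4. NSD3 had 7.05, 9.28 and 8.69 and EHMT1 had 5.79, 6.15 and 5.18.

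All 11 nuclear receptor coregulators had a peak in all 3 libraries. NCOA2, a coactivator, had 9.15, 13.9 and 12.3 in coding sequence. Their mean number of common regions was 2.9, and the best region lay in coding sequence in 5 of 10 genes and at the 3′ end in the other 5. Of 15 SWI/SNF subunits, which remodel nucleosomes, 12 had a peak in all 3, with a mean of 2.33 regions, and the best region lay in coding sequence in 6 of 12 and at the 3′ end in 5. SMARCA4, the ATPase, had 5.23, 4.93 and 5.16, SMARCC2 had 7.04, 9.74 and 7.06, SMARCE1 had 4.5, 4.02 and 3.28, and SMARCC1 had 4.83, 4.18 and 3.43.

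Of 20 immediate early genes, which are induced within minutes of a growth signal, 17 had a peak in all 3 libraries. FOSL1, EGR3 and IER3 had none. MYC had 14, 9.13 and 6.64 over its stop codon and a second region in coding sequence with 1.55, 1.85 and 1.69. IER2 had 10.7, 5.98 and 9.57, and ZFP36L1, which destabilises mRNA, had 6.01, 4.1 and 5.46.

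The best regions by p of ribosomal and core metabolic genes had low folds. Of 43 large ribosomal proteins 23 had a peak in all 3 libraries, as did 11 of 31 small ones. In the large group, 17 had no peak in any list, and in the small group 15. The median fold percentile was 7.72 for the large and 15.3 for the small group, the lowest and the third lowest of the 25 groups, and their median longest transcripts were 1127 and 1125 bases. RPL19 had 1.86, 1.97 and 1.95, RPL13A 2.91, 2.88 and 2.72, and RPL5 2.74, 2.64 and 2.37. RPS6, the substrate of S6 kinase, was higher at 5.23, 4.74 and 4.93. Single peaks elsewhere on these genes could be high: the highest folds listed for RPS20 were 17.9, 19.5 and 13.9, and for RPL27A 13.8, 16.7 and 8.41. Of 20 core genes, 8 had a peak in all 3, and their median fold percentile was 10.3. ACTB, cytoplasmic actin, had 2.12, 2.01 and 2.19, PKM, a pyruvate kinase, had 3.15, 2.57 and 3.04, and EEF2, an elongation factor, had 2.75, 2.63 and 2.48. LDHA, ENO1, ALDOA and TUBB were among the 11 with no peak. Of 31 proteasome genes, 16 had a peak in all 3, among them PSMD7 with 3.15, 3.5 and 2.73 and PSMA4 with 2.69, 2.61 and 2.12.

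Nuclear and mitochondrial genes of the respiratory chain differed in coverage. Of 34 nuclear genes of complex I, 8 had a peak in all 3 libraries (23.5%), near the 27.7% of all protein-coding genes. NDUFV3 had the highest folds of the 8, 35.8, 23.7 and 45.3 over its stop codon, while NDUFB9 had 2.43, 2.41 and 1.91. All 13 proteins encoded by mitochondrial DNA were listed in all 3 libraries. MT-ND5 had the highest folds in 2 of the 3 lists, 18.2, 12.2 and 10, and MT-CO1 had 2.45, 2.51 and 2.42. MT-ND2 was unsteady, at 15.2, 5.58 and 4.99. Mitochondrial peaks could span whole transcripts. They covered 100% of the MT-ND5 transcript in every list, but 34.7%, 38.5% and 38.5% of that of MT-CO1. Neighbouring mitochondrial genes shared regions, such that MT-ND4 and MT-ND4L had a single one.

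**Figure D5:**
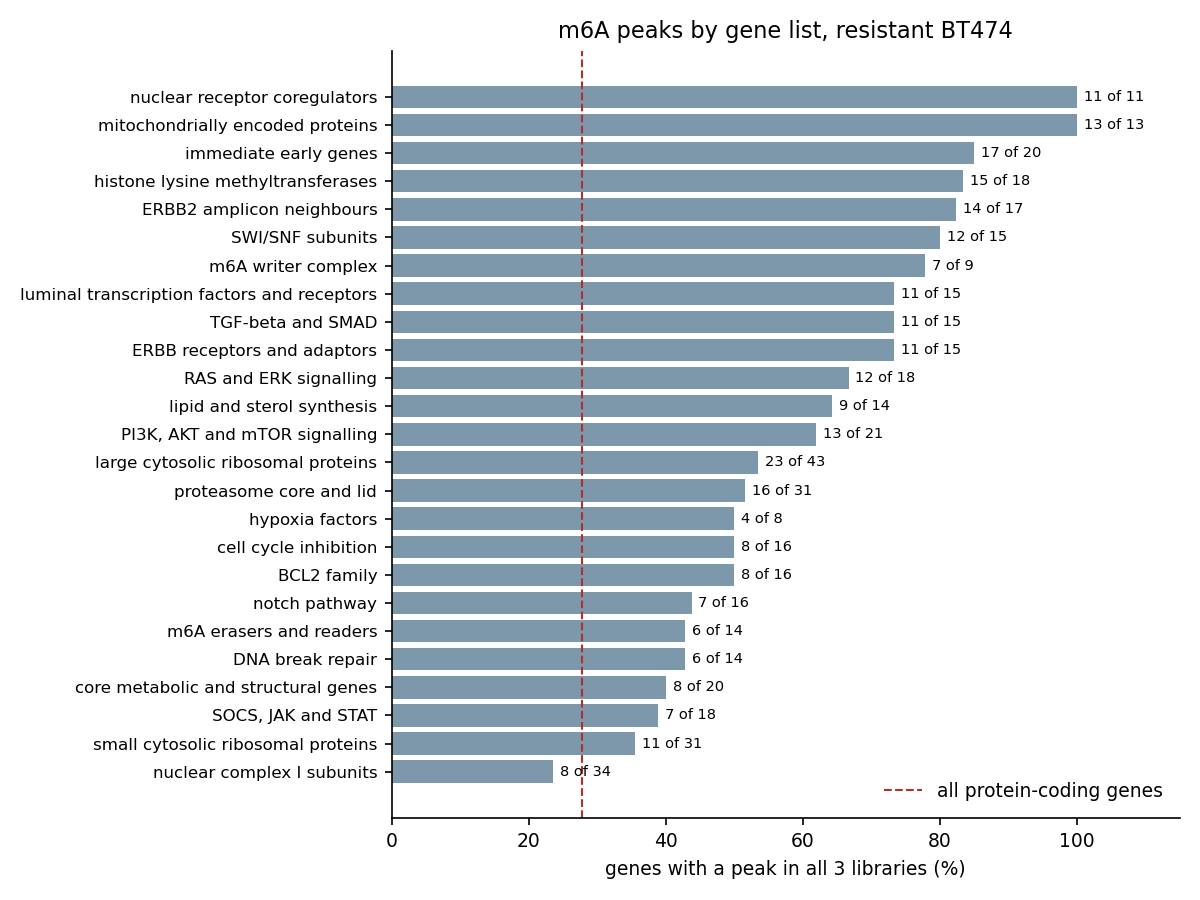
Share of genes with a peak in all 3 libraries (x axis, %) in each of 25 gene lists, with the counts beside the bars; the dashed line is the 27.7% of all protein-coding genes. Nuclear complex I, at 23.5%, lies near the line, and the other lists lie above it. The lists were chosen with earlier results of these data known, so a place above the line is description only.

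Other growth and stress pathways carried peaks in part of their genes. Of 15 TGF-beta and SMAD genes, 11 had a peak in all 3 libraries, among them TGFB3 with folds of 5.79, 5.24 and 3.98 and SKIL, a SMAD corepressor, with 4.38, 3.64 and 5.1. Of 16 notch genes, 7 had one, among them NOTCH3 with 5.85, 4.33 and 4.89 and HES1, a notch target, with 3.96, 4.38 and 8.12. Of 18 SOCS, JAK and STAT genes, 7 had one and 7 had none. SOCS6 led them with 7.23, 7.58 and 8.81, and STAT3, a transcription factor activated by cytokines, had 27.6, 22.3 and 24.4 in its 3′ UTR. High folds often fell on whole multiples of 1.378, 1.395 and 1.1595 in replicates 1, 2 and 3, and those of STAT3 did so in every list.

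Regulators of cell death and of the cell cycle had several high folds. Of 16 BCL2 family genes, 8 had a peak in all 3 libraries. The pro-survival genes MCL1 and BCL2L1 had 5.72, 4.46 and 4.59, and 5.24, 4.57 and 5. The pro-death genes BAX and BBC3 were higher in every list, with 13.3, 8.8 and 11.8, and 7.31, 7.27 and 6.96. These 4 genes led by p among the 7 with a common region, so they do not speak for the family. Its median fold percentile was 59.5, against 58.3 for all genes. Of 16 genes of cell cycle inhibition, 8 had a peak in all 3, and MDM2, a ubiquitin ligase, had 9.02, 7.74 and 9.31. Of 14 genes of DNA break repair, 6 had a peak in all 3, and BRCA1 had 26.2, 30.7 and 16.2 in its 3′ UTR, again whole multiples of those steps.

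Of 14 genes of lipid and sterol synthesis, 9 had a peak in all 3 libraries. The synthetic enzymes SCD and FASN had low folds, 2.76, 2.51 and 2.15, and 2.35, 1.9 and 1.94. Of 8 hypoxia factors, 4 had a peak in all 3. VHL, which marks hypoxia factors for destruction, had 66.1, 46 and 23.8 in its 3′ UTR, on the steps in replicates 1 and 2, and HIF1A had 1.61, 1.84 and 1.92 in coding sequence. SLC2A4, the insulin-responsive glucose transporter, had no listed peak.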

How the data were processed

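Per the labels, RNA of resistant BT474 cells was pulled down with an anti-m6A antibody, and IP and input libraries were made with a stranded kit. HISAT2 was used, per the submitters' processing notes, which give it no role or version. Which peak caller and genome build were used is not given in the sources used here. The deposited lists give, per the file headers, a fold ratio of IP over input and a p-value for each peak and isoform, both made by the authors; whether that p was adjusted is not stated. The authors' block counts and positions on the transcript were used as deposited. Coordinates are those of the files, counted from 1, and no build is named for them. No sequence was read by coordinates.

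Peaks were joined in Python 3.11.15 with pandas 2.3.3, NumPy 2.4.6 and SciPy 1.17.1, and the joining code was checked on simulated data against a base-by-base count. Figures were drawn with matplotlib 3.10.9. Of 7799 gene names, 7173 were current RefSeq symbols, 517 matched 1 gene by an older symbol and 109 stayed as listed. A region's position is that of most of its peaks, with ties settled by the smallest p. With 1 group of 3 libraries there is no comparison of groups, and peaks and genes are not replicates, so no test was run. Replicate numbers came from the sample titles. The members and the 25 gene lists were chosen with earlier results of these data known, so a list's count supports nothing beyond itself.

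Genes were named by rule: the 10 common regions with the best worst rank by fold and by p, the 5 genes with most regions, the 5 regions with most blocks, 3 regions per position, up to 4 genes per list by p, and the m6A regulators METTL3, METTL14, WTAP, FTO, ALKBH5, YTHDF1, YTHDF2 and YTHDF3 with ERBB2, SLC2A4 and MYC. Ties went by symbol. Other genes were named after their values were seen. Some results that the rule selects are not reported here. Alternatives were a p of at most 1e-05, a fold of at least 5, lists of equal length, peaks as listed, joining at 50% overlap, and leaving out each replicate.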

Additional observations from a re-analysis of the deposited data

How the results depend on the processing

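The alternatives were a deposited p of at most 1e-05, a fold of at least 5, lists cut to equal length, peaks counted as listed per isoform, joining at 50% of the shorter peak, and each replicate left out. Genes with a peak in all 3 libraries numbered 4080 at the smaller p and 2254 at a fold of at least 5, against 5644. Common regions numbered 5224 and 2296, against 7800, since fewer peaks were kept. Counted per isoform, 22362 listed peaks were common. The share in the 3′ UTR only was 31.6% at the smaller p, 38.5% at the higher fold and 27.9% as listed. In coding sequence only it was 36.2%, 30.9% and 45.9%, and 38.8% in lists of equal length, so coding sequence did not lead at the higher fold. Over the stop codon it was 24.7%, 19.2% and 18.0%, and 17.8% in lists of equal length. The share touching the 5′ UTR was 11.4% at the higher fold. Regions with a multi-exon peak made up 35.5%, 22.2% and 35.1%, against 28.1% in the text's regions, 28.8% in lists of equal length and 28.6% with joining at 50%. Genes with over 1 merged region made up 32.3%, 23.4% and 79.5%, against 45.8%, and 44.5% and 46.9% in those last alternatives. The median fold was 3.88 at the smaller p and 7.50 at the higher fold. Apart from the number of peaks kept, the cause was not tested.

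Leaving out each replicate gave 5927 to 6044 genes and 8615 to 8875 regions in both others, 35.4% to 36.2% in the 3′ UTR, 39.1% to 39.3% in coding sequence, 17.01% to 17.4% over the stop codon, 7.38% to 8.10% touching the 5′ UTR, 28.06% to 28.1% with a multi-exon peak, 45.3% to 46.2% with over 1 region, and a median fold of 3.52 to 3.61. At a p of at most 1e-05, 134 of the 137 genes that the naming rule picks were in as many libraries as before, and FTO and the hypoxia genes EGLN2 and EGLN3 were in fewer. Most of these genes were picked for a small p, so this count was largely set by the rule. It does not speak for all genes, of which 4080 against 5644 had a peak in all 3 libraries at that p. Genes named outside the rule were not counted, and GATA3 and ESR1 among them had no p that small. No paired analysis was possible because there was 1 group and no comparison. The number of replicates and the unknown depth limit all counts.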

Other observations

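Peaks ran along whole listed transcripts in some genes. In 428 of the 5644 genes with a peak in all 3 libraries, a peak covered over 50% of a listed transcript in every list, and in 93 genes over 80%. APP, the amyloid precursor protein, EEF2, YBX1, JUND, MCL1, HNRNPD and NUFIP2 had a listed transcript covered to 100% in every list. So did the mitochondrial genes MT-ND3, MT-ND4, MT-ND4L, MT-ND5, MT-ND6, MT-ATP6 and MT-ATP8. Each isoform is listed separately, so the transcript covered need not be the longest of its gene.

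The share of protein-coding genes with a peak in all 3 libraries differed by chromosome. It was 35.0% on chromosome 20 (188 of 537 genes), 34.9% on chromosome 14 (211 of 605), 33.5% on chromosome 16 (286 of 854) and 33.1% on chromosome 17 (387 of 1169), which carries ERBB2. It was 19.8% on chromosome 6 (208 of 1049) and 13.7% on chromosome X (116 of 848). Gene density, expression and copy number were not analysed here, so their part was not tested.

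High folds took few distinct values. Between folds of 10 and 100, 69.6% of listed peaks in replicate 1, 72.6% in replicate 2 and 70.4% in replicate 3 were whole multiples of 1.378, 1.395 and 1.1595, within 0.051. A set of evenly spread values would place 7.40%, 7.31% and 8.80% within that distance. The most frequent value was 13.8 in replicate 1, on 301 peaks, 14 in replicate 2, on 236 peaks, and 13.9 in replicate 3, on 305 peaks. These are 10, 10 and 12 steps. Below a fold of 10, 8.31%, 7.66% and 7.21% were whole multiples within 0.0051, where even spread would place 0.740%, 0.731% and 0.880%. Each list's step was chosen to give the most whole multiples among its folds below 10. The excess below 10 was therefore favoured by that choice, and even spread is not a fair baseline for it. Of 682 common regions with a fold from 10 to 100 in every list, 299 (43.8%) were on the steps in all 3 lists. Those of BRCA1 and STAT3 were on the steps in all 3, at 19, 22 and 14 steps for BRCA1 and 20, 16 and 21 steps for STAT3. The regions of VHL and NDUFV3 with folds of 66.1 and 35.8 in replicate 1 were on them in 2 lists, and the named regions of PIK3R2, TFAP2A and MT-ND5 in none. The cause of the steps was not tested.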
